A study of Homo sapiens with 15 samples.

Results

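The genes described here are 6 that encode secreted stress hormones, namely INHBE, STC2, STC1, GDF15, FGF21 and ADM2, out of 60601 genes shared by all the count files. They were chosen by name, and INHBE was noticed because it stood highest among well-measured genes at the weaker rinse aid dilution against unexposed cells. The library-scaled counts of the 3 groups therefore chose the members, and every difference from unexposed cells is given for them as a description with no test. Their tests between the dilutions use the same libraries, so those p-values are not independent of the choice. All libraries came from Caco-2, an established line from a human colon tumour whose confluent cells take on features of small intestinal enterocytes. Monolayers stayed unexposed, or received rinse aid, a surfactant product for dishwashers, at 1:40000 or at the 4 times more concentrated 1:10000, for 24 h. Each group had 5 libraries of polyadenylated RNA, and the series asks how dishwasher products affect the gut epithelial barrier. The replicates' origin in 1 or several cultures is not given, and p-values here describe the spread among libraries, which may be technical.

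Cells short of amino acids or burdened by misfolded protein phosphorylate the initiation factor eIF2, which lowers general translation and raises translation of the transcription factor ATF4. ATF4 and its partners then raise transcription of amino acid enzymes and transporters and of several secreted proteins, a program called the integrated stress response. The hormones carry that state to other cells. INHBE encodes the activin E subunit, a liver hormone of the TGF-beta family that acts on fat tissue, and GDF15 is a distant member of the same family that lowers appetite through a hindbrain receptor. FGF21 is an endocrine fibroblast growth factor that signals through an FGF receptor with the co-receptor beta-klotho. ADM2, also called intermedin, is a peptide of the calcitonin family. STC1 and STC2 are stanniocalcins, glycoproteins that in mammals inhibit the pappalysin proteases that free insulin-like growth factors.

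Promoter sequence was available in RefSeq (GRCh38.p14) for 4 of the 6 genes, STC2, GDF15, FGF21 and ADM2, as 250 bases before and 50 after the start. The windows were searched on both strands for TGATGNAA, the core of the element bound by C/EBP-ATF pairs, because the genes were grouped here as stress hormones. The match occurred in 1 of the 4, FGF21, and in 3.62% of all 35116 promoters of the same length. In FGF21 it lay on the strand opposite to the gene, its first base in the gene's direction 54 bases before the start. Among the 20 integrated stress response genes listed for comparison, 18 had a promoter in the table and 5 of these held the match. Counted the same way, by gene over any of its promoters, 4.46% of all 27305 genes held it. The windows are shown 5′ to 3′ on the motif's strand, with the match in capitals, so that the FGF21 element can be read against them.
FGF21: tcctcctcccTGATGCAAtcctggtgtt
CHAC1: ctggcaggagTGATGCAAcggcagggga
CEBPG: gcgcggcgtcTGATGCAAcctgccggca
ASNS: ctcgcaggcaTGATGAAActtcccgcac
ATF3: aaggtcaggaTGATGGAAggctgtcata
SLC3A2: ggagcTGATGTAAggagtcctgc
FGF21, CHAC1 and CEBPG carried the same 8 letters, TGATGCAA. A match is a description of letters and not of a bound site.

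The GDF15 and STC2 promoters are shown whole because these genes responded to the dilutions in opposite order. The GDF15 window, chr19:18385908-18386207 on the plus strand, held TATAAA, in capitals, starting 29 bases before the start. TATAAA was searched on both strands after the sequences had been seen, and 11.5% of all promoters held it. The STC2 window, chr5:173328365-173328664 on the minus strand, held neither motif. Each window covers 1 RefSeq start. In GENCODE 29 the GDF15 and STC2 genes begin upstream of these windows, at 18374731 and at 173329503, and the bases around those starts were not searched. The FGF21 window, chr19:48755274-48755573 on the plus strand, has its TGATGNAA match in capitals as read on the gene's strand.
GDF15: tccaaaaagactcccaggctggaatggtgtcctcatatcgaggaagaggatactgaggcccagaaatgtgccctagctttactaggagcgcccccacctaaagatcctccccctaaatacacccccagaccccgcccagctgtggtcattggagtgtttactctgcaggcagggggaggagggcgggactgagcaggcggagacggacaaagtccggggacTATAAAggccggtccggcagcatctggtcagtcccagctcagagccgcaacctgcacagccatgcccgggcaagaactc
STC2: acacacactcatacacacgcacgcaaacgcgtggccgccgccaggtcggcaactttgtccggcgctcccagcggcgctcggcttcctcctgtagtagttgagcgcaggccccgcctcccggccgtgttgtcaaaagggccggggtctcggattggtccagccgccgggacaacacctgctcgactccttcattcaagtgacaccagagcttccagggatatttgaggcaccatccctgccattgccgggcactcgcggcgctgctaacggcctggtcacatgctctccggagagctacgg
FGF21: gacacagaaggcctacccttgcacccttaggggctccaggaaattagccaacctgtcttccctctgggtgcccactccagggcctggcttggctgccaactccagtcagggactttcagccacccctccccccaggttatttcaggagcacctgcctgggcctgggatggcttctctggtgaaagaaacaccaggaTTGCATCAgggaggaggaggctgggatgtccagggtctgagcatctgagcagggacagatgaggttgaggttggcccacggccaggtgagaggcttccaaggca
The ADM2 window, chr22:50481293-50481592 on the plus strand, held neither motif and is not printed.

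In GENCODE 29 on GRCh38 all 6 are protein-coding genes, and none shares an exon with another annotated gene. INHBE (ENSG00000139269) lies on the plus strand of chromosome 12 from 57452323 to 57459280, and STC2 (ENSG00000113739) on the minus strand of chromosome 5 from 173314713 to 173329503. GDF15 (ENSG00000130513) lies on the plus strand of chromosome 19 from 18374731 to 18389176 and hosts the microRNA gene MIR3189 in an intron. FGF21 (ENSG00000105550) is on the same chromosome and strand from 48755559 to 48758333. ADM2 (ENSG00000128165) is on the plus strand of chromosome 22 from 50481556 to 50486440, and STC1 (ENSG00000159167) on the minus strand of chromosome 8 from 23841915 to 23854807. GDF15 was the 1 member whose gene model version differed between the unexposed and the rinse aid files.

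Library totals ran from 4333226 to 14230853 counts in unexposed cells, from 2551839 to 172092447 at 1:40000 and from 5489425 to 9555632 at 1:10000. Per the file headers the unexposed libraries were aligned with RNA STAR and both rinse aid groups with HISAT2, and the gene lists differ too. In any contrast with unexposed cells these differences and the exposure cannot be told apart, whereas the 2 dilutions share aligner and gene list. Counts from the mitochondrial rRNA genes were 0.216 to 0.349% of a library in unexposed cells, 0.626 to 1.24% at 1:40000 and 3.11 to 3.83% at 1:10000. Replicates 1 and 2 of each group lay at the low end of the leading axis of variation within groups, which carried 18.8% of that variance. Of 9 enterocyte-like markers 7 were expressed enough to be tested, with KRT20 and LGALS4 near 0, and the list summed to 9298 to 11043 CPM (counts scaled to library size, with sizes adjusted by the trimmed mean of M-values) in unexposed cells, 9045 to 10349 at 1:40000 and 11248 to 13228 at 1:10000. Its tested members did not move together at 1:10000 against 1:40000. The keratins KRT8 and KRT18 rose (log2 fold changes 0.54 ± 0.08 and 0.78 ± 0.08). CDX2, HNF4A, VIL1 and CDH1 fell (-1.61 ± 0.08, -1.02 ± 0.07, -0.31 ± 0.05 and -0.43 ± 0.06), the highest adjusted p among the keratins and these being 2.94e-05 (edgeR). EPCAM did not pass, at 0.06 ± 0.06 (adjusted p = 0.391, edgeR). CDX2, an intestinal transcription factor, averaged 172 CPM in unexposed cells, 192 at 1:40000 and 63.0 at 1:10000. Enteroendocrine markers summed to 0.399 to 2.00 CPM in unexposed cells, 0.922 to 1.91 at 1:40000 and 2.90 to 4.45 at 1:10000. CHGA, GCG, SST and NEUROD1 of that list of 8 were at 0 in every group, and CHGB, the 1 member expressed enough to be tested, did not pass between the dilutions (adjusted p = 0.426, edgeR). CCK, the cholecystokinin gene, averaged 0.045 CPM in unexposed cells, 0.107 at 1:40000 and 1.75 at 1:10000, where it was higher without overlap. Fibroblast markers, 3 of 5 tested, summed to 129 to 152 CPM in unexposed cells, 102 to 132 at 1:40000 and 58.0 to 77.8 at 1:10000. Most of that was COL1A1, at 92.2, 81.2 and 35.3 CPM in the same order, with COL3A1 and PDGFRB also expressed and DCN at 0 outside the 1:40000 group. Leukocyte markers summed to 13.5 to 21.3 CPM in unexposed cells, 15.9 to 23.6 at 1:40000 and 8.95 to 11.6 at 1:10000, with CD14 and LYZ tested and PTPRC at 0 throughout. Of 6 hepatocyte markers 4 were tested, and the list summed to 931 to 1593 CPM in unexposed cells, 631 to 1019 at 1:40000 and 383 to 610 at 1:10000. The part of these shifts in the hormone values was not tested.

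The hormone transcripts fell into 3 patterns across the dilutions. GDF15 stood far above both other groups at 1:10000, INHBE and STC2 stood highest at 1:40000, and for ADM2 no difference between the dilutions was detected. FGF21 and STC1 were too rare for the test across genes. Of the other 4, GDF15 rose and STC2 fell at 1:10000 against 1:40000, while 57.3% of 13158 genes were called in that comparison, 28.3% higher and 29.1% lower. GDF15, STC2 and INHBE had no overlap between the dilutions, against 40.3% of genes tested, 20.4% higher and 19.9% lower. A call means an adjusted p under 0.05, from the quasi-likelihood test of edgeR with the Benjamini-Hochberg adjustment over all genes tested. INHBE was chosen for its height at 1:40000, so its difference between the dilutions is a description with no test. For GDF15, STC2, ADM2 and the family shares, the counts of both dilutions also entered the choice. Their p-values are therefore no independent support.

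**Figure D1:**
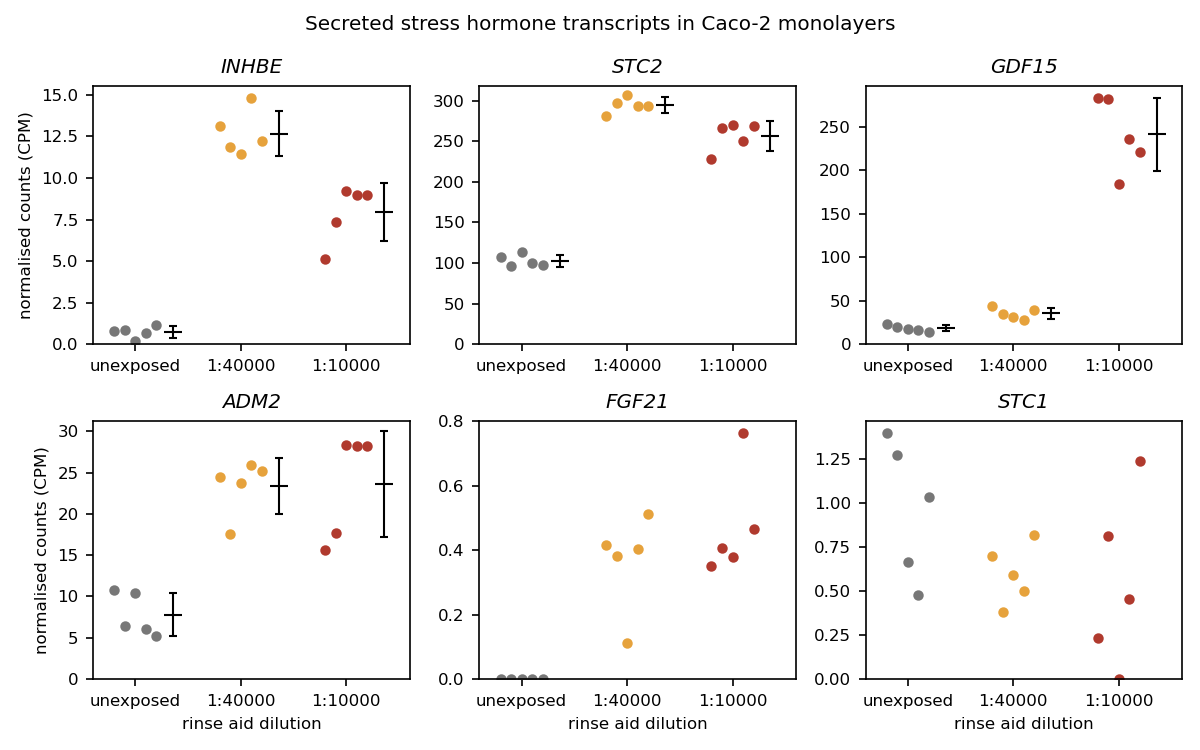
Normalised counts in CPM of the 6 hormone transcripts in each library, by rinse aid dilution, with unexposed cells at the left; the bar beside each group is the mean ± SD over 5 libraries, left out for FGF21 and STC1, whose counts were few. GDF15 reaches 184 to 284 CPM at 1:10000, whereas INHBE and STC2 are highest at 1:40000 and FGF21 has no count in unexposed cells.

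INHBE was nearly silent in unexposed cells. Its normalised counts there were 0.799, 0.881, 0.222, 0.680 and 1.16 CPM in replicates 1 to 5. They were 13.1, 11.8, 11.4, 14.8 and 12.2 CPM at 1:40000, and 5.15, 7.32, 9.21, 9.0 and 9.0 CPM at 1:10000. No group overlapped another, and the 2 lowest libraries at 1:10000 were replicates 1 and 2. The unexposed values rest on 33 counts in all, against 2881 counts at 1:40000 and 270 at 1:10000. The log2 fold change against unexposed cells was 4.01 ± 0.22 (± SE) at 1:40000 and 3.33 ± 0.24 at 1:10000. At 1:10000 INHBE averaged 7.94 ± 1.73 CPM, against 12.7 ± 1.34 CPM at 1:40000 (SD, n = 5 each), a log2 fold change of -0.69 ± 0.16. Within replicates 1 and 2 this log2 fold change was -1.10 ± 0.23, and within replicates 3 to 5 it was -0.47 ± 0.16, a split chosen after the values were seen.

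STC2 was the most abundant hormone transcript in unexposed cells. It measured 107, 96.2, 114, 100.4 and 97.6 CPM there. It measured 281, 297, 307, 294 and 294 CPM at 1:40000, and 228, 266, 270.0, 250 and 269 CPM at 1:10000. Each group formed a narrow band apart from the others. Against unexposed cells STC2 was 2.87-fold higher at 1:40000 and 2.50-fold higher at 1:10000, each with an SE of 0.06 on the log2 scale. STC2 averaged 256 ± 17.9 CPM at 1:10000, against 295 ± 9.32 CPM at 1:40000 (SD, n = 5 each). That difference was small but passed the test, at a log2 fold change of -0.20 ± 0.06 (adjusted p = 0.00542, edgeR).

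GDF15 showed the opposite order. Its values were 23.4, 20.1, 17.8, 16.6 and 14.6 CPM in unexposed cells. They were 44.3, 34.8, 31.7, 28.3 and 40.0 CPM at 1:40000, and 284, 282, 184, 236 and 221 CPM at 1:10000. All 3 groups were apart, the lowest 1:10000 library well above the highest 1:40000 library. The log2 fold change against unexposed cells was 0.99 ± 0.16 at 1:40000 and 3.73 ± 0.16 at 1:10000. GDF15 averaged 242 ± 42.1 CPM at 1:10000, against 35.8 ± 6.41 CPM at 1:40000 (SD, n = 5 each), a log2 fold change of 2.73 ± 0.15 (adjusted p = 1.68e-10, edgeR). This is a 6.65-fold difference between libraries that share aligner and annotation, with an approximate 95% interval of 5.45 to 8.10.

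ADM2 stood above unexposed cells at either dilution. It measured 10.8, 6.46, 10.4, 6.12 and 5.17 CPM in unexposed cells. It measured 24.5, 17.6, 23.7, 26.0 and 25.2 CPM at 1:40000, and 15.7, 17.7, 28.4, 28.2 and 28.2 CPM at 1:10000. The dilutions overlapped, and at 1:10000 replicates 1 and 2 lay well below the other three. The log2 fold change against unexposed cells was 1.71 ± 0.20 at 1:40000 and 1.69 ± 0.21 at 1:10000. ADM2 averaged 23.6 ± 6.39 CPM at 1:10000, against 23.4 ± 3.36 CPM at 1:40000 (SD, n = 5 each). The log2 fold change was -0.02 ± 0.18 (adjusted p = 0.953, edgeR), with an approximate 95% interval from -0.37 to 0.34. Differences within those bounds remain compatible with the values. In the split by replicate chosen after the values were seen, the log2 fold change between the dilutions was -0.46 ± 0.20 within replicates 1 and 2 and 0.20 ± 0.11 within replicates 3 to 5, given as values with no test. Against unexposed cells ADM2 at 1:10000 had a log2 fold change of 1.02 ± 0.23 within replicates 1 and 2 and of 2.10 ± 0.14 within replicates 3 to 5.

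FGF21 had 0 counts in all 5 unexposed libraries, which together held 40566776 counts. A floor of 3 counts in that total is 0.0740 raw CPM, and the exact Poisson 95% interval for 0 counts reaches 0.0909. At 1:40000 it had 72, 1, 3, 4 and 5 counts in replicates 1 to 5, and at 1:10000 it had 3, 2, 3, 5 and 3. It was thus detected in each of the 10 rinse aid libraries, though mostly by a handful of reads. Summed over a group and scaled to the summed library totals alone, FGF21 reached 0.387 raw CPM at 1:40000 (exact Poisson 95% interval 0.309 to 0.479) and 0.431 at 1:10000 (0.247 to 0.700). Taking 3 counts over the unexposed group as the floor, the summed level was 5.23 times that floor at 1:40000 and 5.83 times at 1:10000. The floor lies under the upper end of the unexposed interval, so these are not strict lower bounds. From the lower ends of the counting intervals these ratios to the floor were 4.18 at 1:40000 and 3.33 at 1:10000. Intervals and floors cover counting error only.

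STC1, the other stanniocalcin, did not separate the groups. It had 7, 13, 3, 7 and 8 counts in unexposed libraries, 121, 1, 16, 5 and 8 counts at 1:40000, and 2, 4, 0, 3 and 8 counts at 1:10000. Normalised, it ranged from 0.476 to 1.40 CPM in unexposed cells, from 0.382 to 0.820 CPM at 1:40000 and from 0 to 1.24 CPM at 1:10000, and all groups overlapped. Summed over a group it reached 0.937 raw CPM in unexposed cells (exact Poisson 95% interval 0.663 to 1.29), 0.688 at 1:40000 (0.582 to 0.806) and 0.458 at 1:10000 (0.267 to 0.734). With no filter on low counts, the log2 fold change at 1:10000 against 1:40000 was -0.41 ± 0.50 for STC1 (adjusted p = 0.643, edgeR) and 0.34 ± 0.57 for FGF21 (adjusted p = 0.763, edgeR).

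Of the 6 genes, 5 stood above unexposed cells without overlap at each dilution, where 18.1% of tested genes did so at 1:40000 and 28.8% at 1:10000. FGF21, 1 of the 5, is not among the tested genes that these shares cover. In either direction 36.3% of tested genes at 1:40000 and 57.8% at 1:10000 were free of overlap with unexposed cells. Nothing is read from these shares, since the members were chosen from these groups. Ranked by level per kilobase of annotated exon, STC2 led in unexposed cells with 16.8 ± 1.19 CPM per kilobase, followed by GDF15 at 8.85 ± 1.62 and ADM2 at 1.82 ± 0.612. INHBE and STC1 came next and did not differ beyond their spread, at 0.248 ± 0.114 and 0.234 ± 0.0946 CPM per kilobase. At 1:40000 the order was STC2 at 48.1 ± 1.52, GDF15 at 17.2 ± 3.07, ADM2 at 5.47 ± 0.786 and INHBE at 4.20 ± 0.446 CPM per kilobase. At 1:10000 GDF15 led with 116 ± 20.2, ahead of STC2 at 41.8 ± 2.92, ADM2 at 5.53 ± 1.49 and INHBE at 2.63 ± 0.575 CPM per kilobase.

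Shares within a gene family do not depend on library scaling. The inhibin beta subunits dimerise to form activins, and INHBB, not INHBE, was the main beta subunit transcript in every group. INHBE supplied 4.88, 5.20, 0.952, 3.34 and 5.56% of beta subunit counts in unexposed libraries. It supplied 19.5, 23.1, 23.5, 27.2 and 20.6% at 1:40000, and 6.95, 7.84, 12.9, 13.6 and 13.4% at 1:10000. The mean share was 11.0% ± 3.28 at 1:10000, against 22.8% ± 2.98 at 1:40000 (SD, n = 5 each). The groups did not overlap. The share rests on the INHBE counts that led to its choice and is given without a test.

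ADM2 was set beside ADM, the vasodilator peptide adrenomedullin. ADM2 supplied 31.2, 20.4, 28.8, 14.6 and 12.7% of their joint counts in unexposed libraries. It supplied 55.5, 43.8, 49.5, 54.5 and 54.7% at 1:40000, and 26.1, 35.7, 37.9, 38.5 and 38.8% at 1:10000. The mean share was 35.4% ± 5.33 at 1:10000, against 51.6% ± 4.96 at 1:40000 (SD, n = 5 each). The two-sided exact permutation test gave p = 0.00794, the smallest that 5 against 5 libraries allow. It was 0.0119 after Benjamini-Hochberg adjustment over the 3 family shares computed. That adjustment took in the INHBE share, which is given without a test, and leaving it out would give a larger value. ADM2 itself did not pass between the dilutions, and ADM rose at 1:10000 against 1:40000, at 42.5 ± 5.95 against 21.8 ± 1.72 CPM, a log2 fold change of 0.98 ± 0.12 (adjusted p = 1.85e-07, edgeR). STC2 supplied nearly all stanniocalcin counts in every library, with means of 99.1% in unexposed cells, 99.8% at 1:40000 and 99.8% at 1:10000. Between the dilutions that share did not pass (two-sided exact permutation test, p = 0.937).

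**Figure D2:**
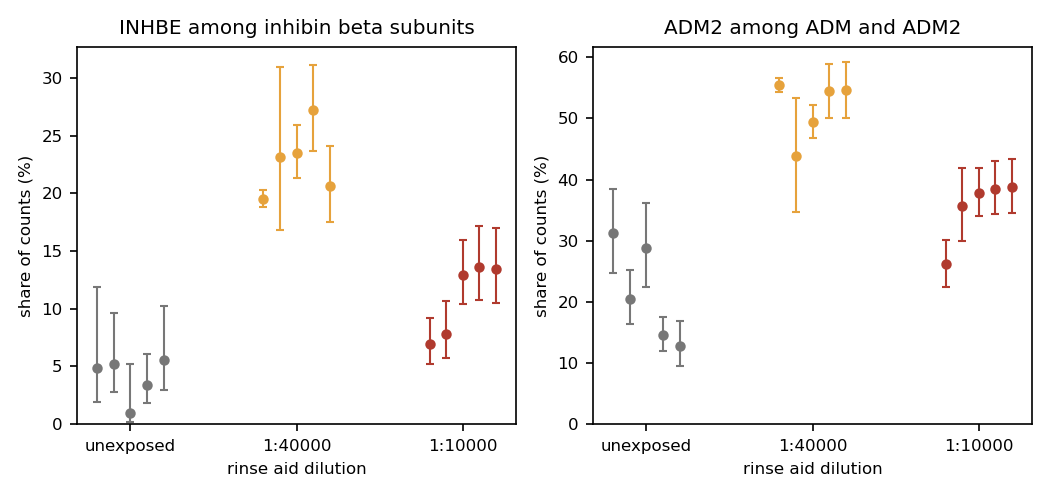
Share of counts in percent, per library with 95% Wilson intervals for counting error, of INHBE among INHBA, INHBB, INHBC and INHBE (left) and of ADM2 among ADM and ADM2 (right), by rinse aid dilution. Both shares are highest at 1:40000 and lower at 1:10000 without overlap.

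Among relatives of the hormones, 5 of 12 listed genes were expressed enough to be tested, and all 5 passed between the dilutions, 3 higher and 2 lower at 1:10000, where 57.3% of all genes tested passed. INHBB, the activin B subunit, averaged 18.5 ± 2.96 CPM in unexposed cells, 43.3 ± 6.99 CPM at 1:40000 and 66.3 ± 11.9 CPM at 1:10000 (SD, n = 5 each). It rose at 1:10000 against 1:40000 by a log2 fold change of 0.59 ± 0.12 (adjusted p = 0.000306, edgeR), the direction opposite to INHBE. FGF19, the intestinal hormone that restrains bile acid synthesis in the liver, stood at 2.00 ± 0.405 CPM at 1:10000 and 0.640 ± 0.276 CPM at 1:40000 (log2 fold change 1.35 ± 0.31, adjusted p = 0.000577, edgeR). Its counts at 1:40000 were 192, 1, 16, 5 and 6 in replicate order. Only the 1:10000 libraries, at 1.64 to 2.69 CPM, brought FGF19 through the count filter. Its calls at 1:10000, counted among those of the relatives, are therefore no independent support. GDF11, a TGF-beta family ligand, fell at 1:10000 against 1:40000 by 0.61 on the log2 scale (adjusted p = 1.88e-05, edgeR). INHA, the inhibin alpha subunit, fell too, but on under 2 CPM in every library (log2 fold change -1.39 ± 0.48, adjusted p = 0.0152, edgeR). At 1:10000 it stood at 0.153 to 0.702 CPM, and only unexposed and 1:40000 libraries brought INHA through the count filter. The INHA calls at 1:10000, also counted among those of the relatives, are likewise no independent support. The number of relatives lower at 1:10000 against 1:40000 was 1 in place of 2 without unexposed replicate 4, 1:40000 replicate 4 or 1:40000 replicate 5. Against unexposed cells INHBB, FGF19 and ADM rose at 1:10000 and INHA and GDF11 fell, with log2 fold changes of 1.84 ± 0.13, 2.77 ± 0.42, 0.53 ± 0.12, -1.79 ± 0.49 and -0.88 ± 0.10 in that order. The highest adjusted p among them was 0.00211 (edgeR), for INHA. ADM went the other way at 1:40000 against unexposed cells, where it fell (log2 fold change -0.45 ± 0.12, adjusted p = 0.00282, edgeR). The activin subunits INHBA and INHBC were near absent.

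Receptors, antagonists and binding partners numbered 27, of which 18 were tested. Between the dilutions 4 were higher and 7 lower at 1:10000, where 28.3% of all genes tested were called higher and 29.1% lower, 57.3% in all. Their median log2 fold change was -0.12, against -0.01 over all genes tested. Against unexposed cells 8 were higher and 2 lower at 1:40000, where 26.1% of all genes tested were called higher and 26.0% lower, 52.1% in all. At 1:10000 against unexposed cells 7 were higher and 8 lower, where 34.8% of all genes tested were called higher and 36.2% lower, 71.0% in all. All 4 FGF receptor genes and KLB were expressed. KLB encodes beta-klotho, the co-receptor that FGF21 needs. It measured 10.8, 16.8, 10.4, 12.4 and 9.56 CPM in unexposed cells. It measured 6.70, 7.26, 6.60, 6.54 and 6.25 CPM at 1:40000, and 0.351, 0.407, 0.631, 0.915 and 0.155 CPM at 1:10000. The 3 groups were apart, in falling order with concentration. KLB fell at 1:10000 against 1:40000 by 3.72 on the log2 scale (SE 0.27, adjusted p = 3.93e-11, edgeR). Its log2 fold change at 1:10000 against unexposed cells was -4.61 ± 0.26 (adjusted p = 5.69e-14, edgeR). Only the unexposed and 1:40000 libraries brought KLB through the count filter. The KLB calls at 1:10000, counted among those of the receptors and partners, are therefore no independent support.

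FGFR2, FGFR3 and FGFR4, which bind fibroblast growth factors at the cell surface, fell at 1:10000 against 1:40000. FGFR2 averaged 85.5 ± 9.0 CPM at 1:10000 and 161 ± 12.0 CPM at 1:40000 (log2 fold change -0.91 ± 0.07, adjusted p = 9.78e-11, edgeR). FGFR3 averaged 64.4 ± 9.15 CPM at 1:10000 and 89.7 ± 5.16 CPM at 1:40000 (log2 fold change -0.47 ± 0.08, adjusted p = 1.47e-05, edgeR). FGFR4, the receptor for FGF19, averaged 191 ± 13.7 CPM in unexposed cells, 247 ± 23.3 CPM at 1:40000 and 148 ± 8.81 CPM at 1:10000. It thus lay above unexposed cells at 1:40000 and below them at 1:10000, and differed between the dilutions by -0.74 ± 0.07 (adjusted p = 1.91e-09, edgeR). FGFR1, the usual partner of KLB for FGF21, had a log2 fold change of 0.12 ± 0.15 between the dilutions (adjusted p = 0.512, edgeR).

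**Figure D3:**
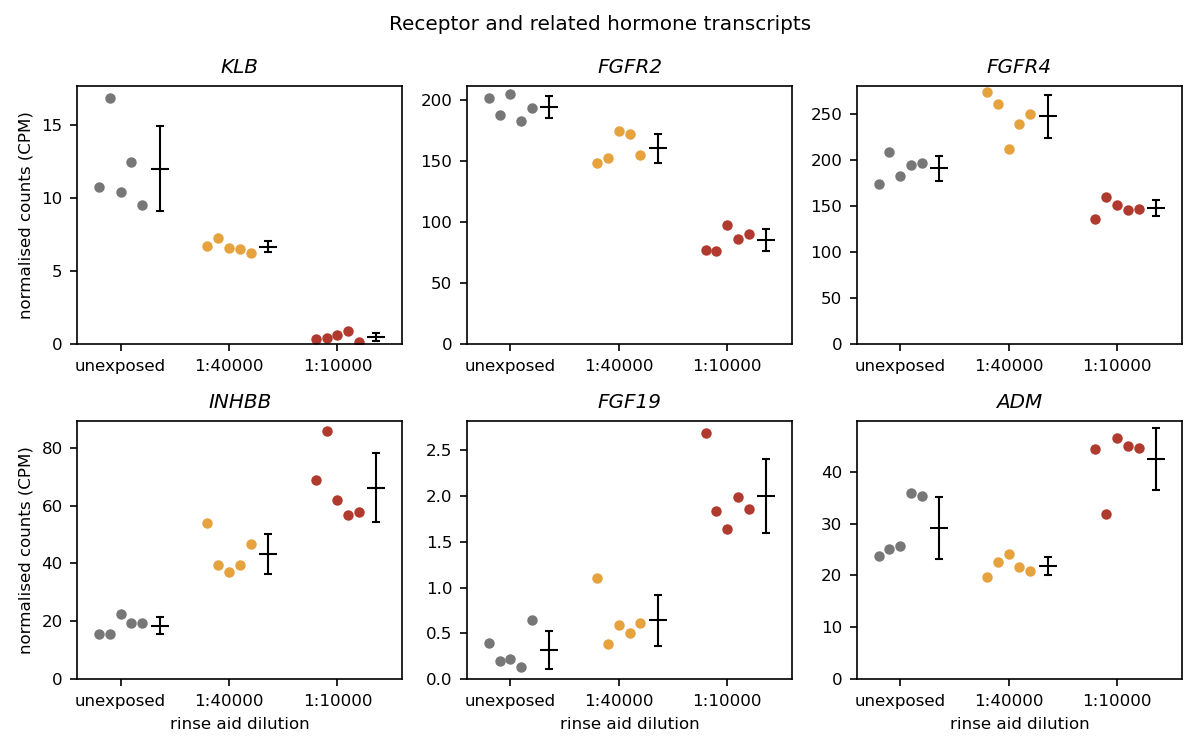
Normalised counts in CPM of the co-receptor KLB, the receptors FGFR2 and FGFR4 and the related hormone genes INHBB, FGF19 and ADM in each library, by rinse aid dilution; bars are the mean ± SD over 5 libraries. KLB is under 1 CPM in every 1:10000 library, and FGFR4 lies above the unexposed level at 1:40000 and below it at 1:10000. The unexposed libraries had another aligner and gene list.

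Of 12 genes listed for activin E signalling 11 were tested, and 4 were higher and 2 lower at 1:10000 against 1:40000, a share near the 57.3% of all genes called. ACVR1, a type I receptor, averaged 41.3 ± 3.51 CPM at 1:10000 and 25.4 ± 4.05 CPM at 1:40000 (log2 fold change 0.69 ± 0.11, adjusted p = 5.88e-06, edgeR). ACVR1B, a type I receptor for activins, averaged 229 ± 13.6 CPM at 1:10000 and 312 ± 25.1 CPM at 1:40000 (log2 fold change -0.44 ± 0.06, adjusted p = 1.55e-06, edgeR). ACVR1C, which encodes ALK7, the receptor through which activin E acts on fat cells, had a log2 fold change of 0.03 ± 0.15 between the dilutions (adjusted p = 0.879, edgeR) at 7.49 to 13.6 CPM over all libraries. The signal transducers SMAD2 and SMAD4 rose at 1:10000 against 1:40000, by 0.31 ± 0.07 and 0.43 ± 0.10 on the log2 scale, and SMAD3 fell by 0.42 ± 0.07. The co-receptor gene TGFBR3 also rose, at 0.54 ± 0.11. ACVR2A, ACVR2B, FSTL3 and SMAD7 did not pass, and the antagonist FST was near absent.

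The receptors of the other hormones were scarce. GFRAL, the GDF15 receptor, and its partner RET had a count only in the deepest library. CALCRL, the receptor for adrenomedullins, had at most 1 count in any library, and RAMP3, which modifies it, was at 0. RAMP2, another such modifier, averaged 12.3 ± 0.881 CPM at 1:10000 and 19.3 ± 2.35 CPM at 1:40000 (log2 fold change -0.62 ± 0.12, adjusted p = 7.26e-05, edgeR). Of the genes tied to stanniocalcin action, PAPPA, PAPPA2 and IGFBP5 were near absent, and IGFBP4, a pappalysin substrate, had a log2 fold change of -0.20 ± 0.11 between the dilutions (adjusted p = 0.138, edgeR).

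The integrated stress response genes differed among themselves in their order across the dilutions. Of 20 listed genes 19 were tested, and 10 were higher and 2 lower at 1:10000 against 1:40000, with a median log2 fold change of 0.33 against -0.01 over all genes, of which 28.3% were called higher and 29.1% lower. Against unexposed cells 17 were higher and 0 lower at each dilution, with median log2 fold changes of 1.46 at 1:40000 and 2.03 at 1:10000. Of all genes tested 26.1% were called higher at 1:40000 and 34.8% at 1:10000. The list was chosen with earlier results of these data known, so its counts of calls are no independent support. Contrasts with unexposed cells also differ in aligner and gene list. ASNS, at 0.294 to 0.517 CPM in unexposed cells, passed the count filter only through rinse aid libraries and is among the 17. The 4 called genes with the highest log2 fold change at 1:10000 against 1:40000 were ATF3, a stress-induced transcription factor, at 2.59 ± 0.10, and PPP1R15A, the phosphatase subunit that reverses eIF2 phosphorylation, at 2.57 ± 0.15. SLC3A2, the heavy chain of amino acid exchangers, followed at 1.41 ± 0.08, and DDIT3, the transcription factor CHOP, at 0.93 ± 0.12. The 2 lowest were the serine synthesis enzymes PSAT1 at -0.67 ± 0.07 and PHGDH at -0.53 ± 0.07. GDF15 at 2.73 ± 0.15 was within error of ATF3, and INHBE at -0.69 ± 0.16 was within error of PSAT1. ATF4 itself had 439 ± 28.8 CPM at 1:10000 and 413 ± 13.5 CPM at 1:40000 (log2 fold change 0.09 ± 0.06, adjusted p = 0.19, edgeR).

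**Figure D4:**
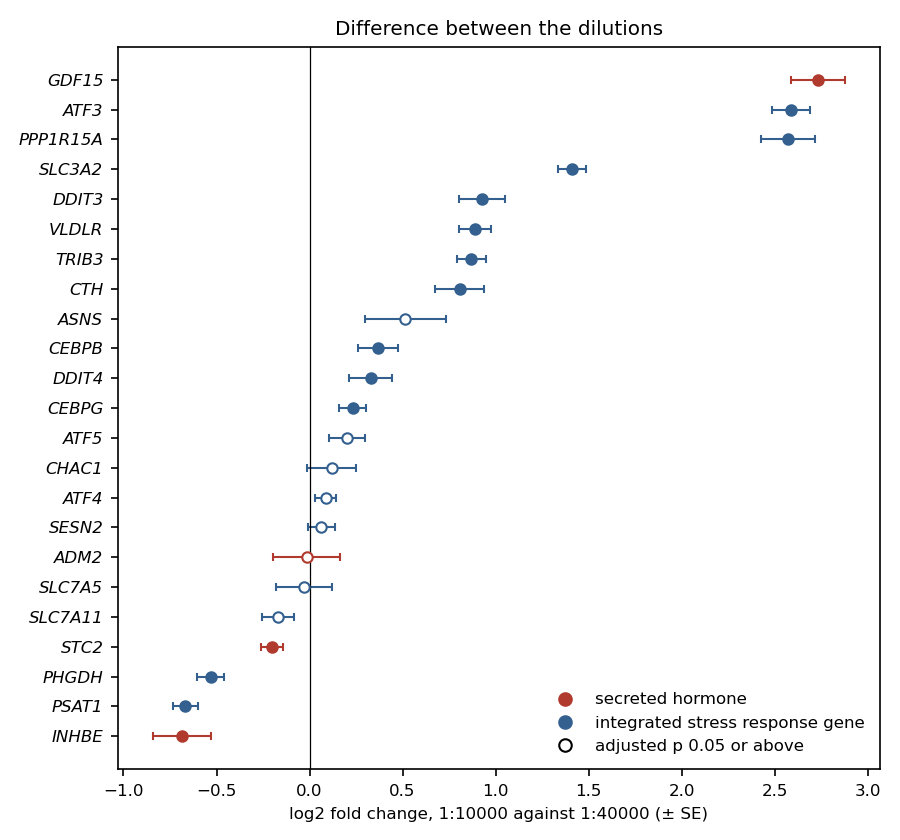
Log2 fold change at 1:10000 against 1:40000, ± SE, of the 4 tested hormone genes (red) and 19 integrated stress response genes (blue), sorted by value; open symbols have an adjusted p of 0.05 or above. GDF15 is at the upper end at 2.73 and INHBE at the lower end at -0.69, with ADM2 near 0. The INHBE value is a description, since INHBE was chosen from these libraries, and its filled symbol is not read as a test.

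GDF15 has further known inputs, p53 among them, and STC1 responds to hypoxia. Of 5 genes listed for these inputs, 4 were tested. MDM2, a p53 target, and VEGFA, a hypoxia and stress target, rose at 1:10000 against 1:40000, by 0.43 ± 0.07 and 0.74 ± 0.12 on the log2 scale. CDKN1A, another p53 target, stood at 0.02 ± 0.26 and NDRG1, a hypoxia target, at -0.10 ± 0.24, and neither passed. Thus 2 of the 4 were called, where 57.3% of all genes tested were called. The part of these inputs in the hormone values was not tested.

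The profile over the 15 libraries was compared with those of 10046 other protein-coding genes of at least 5 CPM, by the root mean square difference of log2 CPM after centring each gene on its own mean. Nearest to GDF15 were ALPG, an alkaline phosphatase, at 0.25, PPP1R15A at 0.30 and MAFF, a small transcription factor, at 0.30. PPP1R15A averaged 35.1 ± 3.78 CPM in unexposed cells, 51.4 ± 13.6 CPM at 1:40000 and 309 ± 28.6 CPM at 1:10000. Nearest to STC2 were the seryl- and alanyl-tRNA synthetase genes SARS1 and AARS1, both at 0.14, and SHMT2, a mitochondrial enzyme of one-carbon metabolism, at 0.17. Nearest to ADM2 were LRFN4, a synaptic adhesion protein gene, at 0.29, the cytochrome P450 gene CYP2W1 at 0.32 and STC2 itself at 0.33. Nearest to INHBE were H3-3A, a histone gene, at 0.45, ALDH1L2, a mitochondrial folate enzyme gene, at 0.58 and HNRNPA1L3 at 0.59. These distances read against the spread of each member about its own mean, which was 1.59 for GDF15, 0.68 for STC2, 0.84 for ADM2 and 1.82 for INHBE on the same scale. ALDH1L2 averaged 4.03 CPM in unexposed cells, 41.1 CPM at 1:40000 and 29.6 CPM at 1:10000. H3-3A, HNRNPA1L3 and ALPG have near-identical copies in the genome, so their counts are uncertain across the 2 aligners.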

How the data were processed

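Polyadenylated RNA of 15 Caco-2 libraries was measured, 5 per group. Each library has its own deposited table of unnormalised counts for Ensembl gene identifiers, made by the authors. Tools in the submitters' processing notes, listed with no role, are featureCounts, cutadapt, DESeq2 1.32.0 and STAR 2.7.9a, and the build is GRCh38. The files listed 60649 genes (unexposed) and 61544 genes (rinse aid), and at least 99.977% of each library lay in the 60601 shared identifiers. The annotation release and strand setting are not given in the sources used here, so reads of antisense partners cannot be told apart.

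Symbols came from a table of Ensembl identifiers. The counts were fitted in R 4.3.3 with edgeR 4.0.16 (TMM scaling, filterByExpr by group, 3 group means, robust quasi-likelihood test) over 13158 genes in all 15 libraries, and the code was tested on simulated data. Each SE was approximated from the log2 fold change and its F statistic (its size over the root of F), and intervals of differences are 1.96 SE either side. DESeq2 1.42.0, other scalings, no filter, a replicate block and left-out libraries were alternatives. Exact permutation tests used scipy 1.17.1.

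The members and gene lists were chosen with earlier results of these data known. Named genes are all members, tested receptors, partners and relatives, the 4 highest and 2 lowest called stress response genes between the dilutions, and the 3 nearest profiles per tested member. Other genes are named only where listed as scarce, as markers or as known inputs.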

Additional observations from a re-analysis of the deposited data

Results flagged for a closer look

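Among 90 groups of 5 libraries examined (tested hormones, partners, relatives and the family shares), 4 held a library far from the other four, and chance flags about 1 group in 20. In the 1:40000 group ADM2 was lowest in replicate 2, the shallowest library of the series, at 17.6 CPM. In the 1:10000 group ADM was lowest in replicate 2 at 31.9 CPM, and the ADM2 share was lowest in replicate 1 at 26.1%. ACVR2A was highest in 1:10000 replicate 4 at 20.4 CPM.

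FGFR4 lay below unexposed cells in every 1:10000 library and above them in every 1:40000 library. Unexposed libraries had another aligner and gene list, so the side on which each dilution lay cannot be told apart from that difference. The difference between the dilutions was itself tested, with a log2 fold change of -0.74 at 1:10000 against 1:40000 (edgeR, adjusted p = 1.91e-09).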

How the results depend on the processing

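Between the dilutions GDF15 and STC2 kept their direction and call, and INHBE its direction, under DESeq2, RLE or upper-quartile scaling, no count filter, the replicate block, the rinse aid libraries alone, and without the deepest and shallowest 1:40000 library. Leaving out 1 library at a time gave log2 fold changes of 2.66 to 2.85 for GDF15, -0.75 to -0.54 for INHBE and -0.22 to -0.15 for STC2. With replicates 1 and 2 only, STC2 stood at -0.25 (adjusted p = 0.0549, edgeR), which leaves 2 libraries per group. ADM2 changed sign around 0, from -0.0918 to 0.121 without single libraries, 0.0133 under DESeq2, 0.00046 under RLE scaling and 0.20 with replicates 3 to 5 only, and passed under none of these. Against unexposed cells at 1:10000 ADM2 moved to 1.02 with replicates 1 and 2 only. With the replicate block the differences of the INHBE share (-11.8 percentage points) and the ADM2 share (-16.2) did not move, and the exact p of the ADM2 share was 0.0625, the smallest that 5 pairs allow. With replicates 3 to 5 only they were -10.5 and -14.5, with an exact p of 0.1 for ADM2, again the smallest possible. Without single libraries they ranged from -12.7 to -10.7 and from -18.2 to -13.9. The STC2 share difference ranged from -0.059 to 0.056 percentage points without single libraries, was 0.043 on summed counts and 0.00398 without the deepest and shallowest 1:40000 library. Relatives lower at 1:10000 against 1:40000 numbered 2 in the full fit, and 1 in the rinse aid libraries alone, in replicates 1 and 2 only and without unexposed replicate 4, 1:40000 replicate 4 or 1:40000 replicate 5 (range 1 to 2). Receptors called higher at 1:40000 against unexposed cells numbered 8 in the full fit and 5 without the deepest and shallowest 1:40000 library and with replicates 3 to 5 only. The cause of these moves was not tested. Genes called between the dilutions ranged from 7076 to 7619 without single libraries, with 8011 under the replicate block and 5629 in replicates 1 and 2 only. The replicate block changed no call of a tested hormone, and same-numbered libraries of the dilutions correlated at 0.0464 to 0.281 after removal of group means, with 4 of 5 over 0.1 and replicates 1, 2 and 3 closest to their own number. Not every pair was over 0.1 and the labels name no shared source, so the numbers were not taken as pairs. A shared structure is still visible in the data, and under the block the SE of GDF15 was 0.08 against 0.15. Depth limited FGF21 and STC1 to counting statements, and 1:40000 replicate 1 held most of their counts.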
